A study of Mus musculus with 4 samples.

Results

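The extracellular matrix genes described here are the collagen chains, the laminin chains and 22 further named genes for basement membrane linkers, glycoproteins, fibulins and lysyl oxidases. They were chosen by a rule on symbols that used no measured value, though earlier results of these data were known. Of the 12967 gene symbols, 50 belonged to them. The 50 comprised 24 collagens, 9 laminins and 17 of the 22 named genes; Nid2, Fbn2, Dcn, Lox and Efemp1 were not analysed here. The extracellular matrix is the protein scaffold that surrounds cells. Laminin trimers and collagen IV form the sheets of the basement membrane, which perlecan, agrin and nidogen join together, while fibronectin and the fibrillar collagens build the interstitial matrix and lysyl oxidases crosslink it. All of these proteins are translated at the endoplasmic reticulum and secreted, and in carcinomas the tumour cells contribute basement membrane and matricellular proteins whereas fibroblasts are the main source of fibrillar collagen.

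The RNA came from 4T1, a mouse mammary carcinoma line of epithelial origin, cultured with puromycin at 4 ug/mL. Of the 4 libraries, 1 each was made from the IgG precipitate and the Caprin-1 precipitate of cells stably expressing the SCR control shRNA (shSCR), and 1 each from the same precipitates of cells stably expressing a shRNA against CerS4 (shCerS4). Caprin-1 is a cytoplasmic RNA-binding protein, CerS4 is a ceramide synthase, and the question was how altered lipid metabolism bears on the mRNAs bound by Caprin-1, which the study describes in a complex with PD-L1. With 1 library in each group, no comparison could be set against the spread of replicates and none was tested. The labels give no clone number for either line, Cers4 itself was not analysed here, and the depletion of CerS4 was not checked.

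Levels are in CPM, a gene's reads scaled to a fixed library total and summed over its transcripts. Estimated depths were 19.7 to 27.0 M reads, at which 3 reads corresponded to 0.111 to 0.153 CPM. A ratio is given as log2, followed in brackets by a 95% interval that covers counting error only. A gene was counted as higher or lower when its ratio was at least 2-fold with an interval that excluded 0, among the 10283 genes whose level averaged 5 CPM or more over the libraries. Of the 50 matrix genes 27 reached that mean, 9 collagens and 7 laminins among them. Of the 9 epithelial markers looked for, 8 had values, with summed levels of 3044 to 7891 CPM; Krt8 and Krt18, keratins of simple epithelium, stood at 868 to 2790.1 CPM and 1228 to 4276 CPM. Of 12 fibroblast and mural markers 7 had values, and their sum of 3405 to 7819 CPM was mostly Vim, an intermediate filament gene that mesenchyme-like carcinoma cells also express. S100a4, also expressed by carcinoma cells, had 179 to 871 CPM and was lower in shCerS4 cells with Caprin-1 (-1.97) and IgG (-1.66). Epithelial markers changed in either direction between the lines. Krt8 was lower in shCerS4 cells with Caprin-1 (-1.30) and IgG (-1.12), and Esr1 was higher with both (1.26 and 1.08). Cdh1 was higher with Caprin-1 (1.06) and Cldn7 with IgG (1.09). The fibroblast and mural markers Thy1, Acta2 and Cd34 had at most 0.915 CPM in any library and Rgs5 at most 1.36, whereas the fibroblast receptor gene Pdgfra had 58.9 CPM with IgG and 23.6 with Caprin-1 in shSCR cells, and 39.4 and 19.2 in shCerS4 cells. Of 5 endothelial markers 1 had values (Kdr, at most 0.666 CPM), and of 7 blood cell markers 1 (Cd68, 14.6 to 49.1 CPM). Cd68 had shCerS4 over shSCR ratios of -1.75 with Caprin-1 and -0.79 with IgG. The part of other cells in the matrix results was not tested. In such bulk libraries fewer cells that make an mRNA and less of it per cell cannot be told apart.

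**Figure D1:**
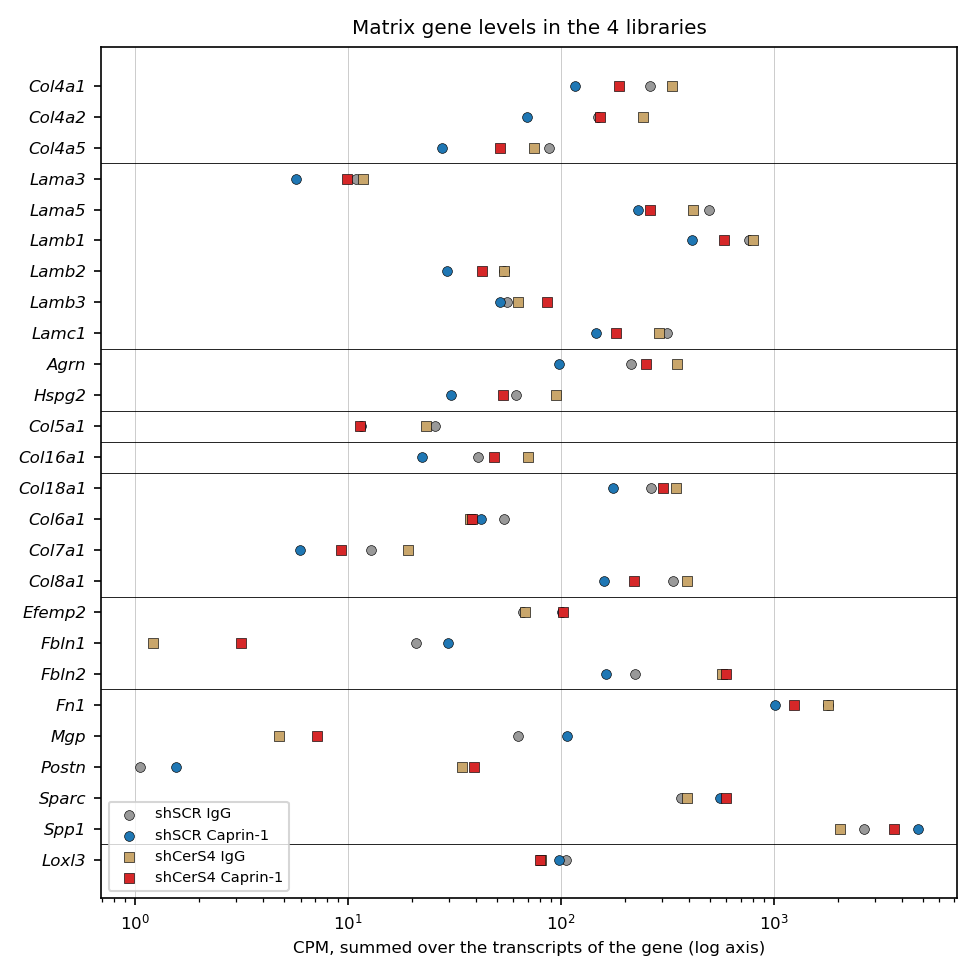
Level of 26 tested matrix genes, on a log axis in CPM, with 1 point per library and lines between gene families. Postn lies to the right in both shCerS4 libraries (34.4 and 39.1 CPM against 1.06 and 1.55), Mgp and Fbln1 lie to the left in them, and the laminins and collagen IV have their lowest point in the shSCR Caprin-1 library.

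The matrix genes together took a like share of every library, 0.910% of shSCR IgG, 0.883% of shSCR Caprin-1, 0.925% of shCerS4 IgG and 0.932% of shCerS4 Caprin-1. That near-constant sum hid a shift between genes. Without Spp1, which encodes the secreted phosphoprotein osteopontin, the shares were 0.643%, 0.407%, 0.720% and 0.566%. The shSCR Caprin-1 library thus held the smallest share of matrix mRNA other than Spp1, and both Caprin-1 libraries held less than the IgG library of the same cells.

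The closest neighbours among the matrix genes were Col4a1 and Col4a2. These genes encode the chains of the ubiquitous collagen IV trimer and are transcribed away from each other on chromosome 8 (build GRCm38, 11198423 to 11312889 on the minus strand and 11312805 to 11449287 on the plus strand). Their RefSeq promoter windows, from 250 bases before to 50 bases after the start, are shown because the pair stood on the same side of 0 in every comparison below. The windows are chr8:11312777-11313076 (minus strand) and chr8:11312555-11312854 (plus strand) of GRCm38.p6. The starts used for these windows lay 21 bases apart, that of Col4a1 being inside the outermost gene end given above. The capitals mark the 78 bases that the windows share, read from opposite strands.
Col4a1: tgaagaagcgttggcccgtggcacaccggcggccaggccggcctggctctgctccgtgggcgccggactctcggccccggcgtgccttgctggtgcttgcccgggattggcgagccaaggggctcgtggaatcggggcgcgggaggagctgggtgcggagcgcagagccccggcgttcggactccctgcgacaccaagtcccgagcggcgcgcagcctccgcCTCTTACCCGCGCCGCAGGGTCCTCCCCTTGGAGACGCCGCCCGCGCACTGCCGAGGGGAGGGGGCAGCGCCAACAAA
Col4a2: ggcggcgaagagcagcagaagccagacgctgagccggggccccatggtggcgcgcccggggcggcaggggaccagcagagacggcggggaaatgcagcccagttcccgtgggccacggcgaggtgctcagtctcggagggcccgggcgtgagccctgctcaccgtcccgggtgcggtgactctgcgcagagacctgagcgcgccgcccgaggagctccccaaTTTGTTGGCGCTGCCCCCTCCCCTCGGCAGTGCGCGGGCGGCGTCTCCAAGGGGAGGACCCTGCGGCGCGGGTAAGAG
Both windows were rich in G and C, at 74.0% and 73.7% of bases where the median over all windows was 52.7%.

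The windows of Fbln2, which encodes the elastic fibre and basement membrane protein fibulin 2, and Postn, which encodes the matricellular protein periostin, are shown because these genes were higher in shCerS4 cells past 2-fold in both precipitates. They are chr6:91212514-91212813 and chr3:54359017-54359316, both on the plus strand of GRCm38.p6. Capitals mark matches to 5 promoter elements searched on both strands: the TATA box TATAAA, the CCAAT box CCAAT, the GC box GGGCGG, the AP-1 element TGANTCA and the TEAD element GGAATG.
Fbln2: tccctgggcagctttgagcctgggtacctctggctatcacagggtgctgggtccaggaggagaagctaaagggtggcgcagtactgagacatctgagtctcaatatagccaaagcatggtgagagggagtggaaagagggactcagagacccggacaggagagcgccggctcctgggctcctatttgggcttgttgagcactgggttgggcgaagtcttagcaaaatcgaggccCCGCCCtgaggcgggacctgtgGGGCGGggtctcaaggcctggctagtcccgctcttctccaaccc
Postn: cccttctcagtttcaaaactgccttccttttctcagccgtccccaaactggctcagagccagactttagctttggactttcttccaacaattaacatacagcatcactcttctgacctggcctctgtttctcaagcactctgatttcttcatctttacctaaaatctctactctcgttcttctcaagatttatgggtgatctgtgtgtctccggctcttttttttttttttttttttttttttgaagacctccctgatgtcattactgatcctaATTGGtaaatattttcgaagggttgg
Fbln2 had a pair of GC boxes, with first bases 16 before the start and at base 7 after it, and Postn had a CCAAT box on the opposite strand from base 25. Windows of 21 of the 27 genes were counted, and where a gene had several the outermost was used. Genes outside the 21 were left out of these counts, which may not cover every tested gene with a window. A GC box was in 14 of the 21 (66.7%), against 35.7% of all 32851 windows, and a CCAAT box in 9 (42.9%) against 37.4%. The 32851 windows were not limited to tested genes or to the outermost window of a gene, so these shares were not of like sets. Among the 21, Spp1 alone held the TATA letters (13.6% of all windows), Col6a1 alone the AP-1 letters (7.81%), and none the TEAD letters (14.7%). These are matches of letters, not sites.

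Matrix mRNAs were next compared between shCerS4 and shSCR cells, in the Caprin-1 precipitates and, as background, in the IgG precipitates. In the Caprin-1 precipitates 5 of 27 were higher in shCerS4 cells (Postn, Fbln2, Agrn, Col4a2 and Col16a1), where 6.25% of all tested genes were, and 2 were lower (Mgp and Fbln1), where 4.95% were. In the IgG precipitates 2 were higher (Postn and Fbln2; 5.69% of all genes) and the same 2 lower (5.34%). Basement membrane genes, taken here as the laminins, collagen IV, Agrn and Hspg2, were all above 0 with Caprin-1, 12 of 12 with a median of 0.72. With IgG 9 of the 12 were above 0, with a median of 0.10. Under the 3 other scalings all 12 stayed above 0 with Caprin-1, but only 6 or 7 were with IgG. The share of all genes above 0 was not counted for these 2 comparisons. Col18a1 and Fbln2, whose proteins also occur in basement membranes, were not in this set. The median over the 27 was 0.50 with Caprin-1 and 0.09 with IgG, beside 0.15 and 0.10 over all genes. At any size, the interval lay above 0 for 20 genes with Caprin-1 (51.0% of all genes) and below it for 5 (30.2%); with IgG it lay above 0 for 14 (46.9%) and below for 8 (32.2%).

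The 4 genes past 2-fold in both precipitates were those of the fibulins and of secreted matricellular proteins. Postn, whose protein is a ligand of integrins, stood at 1.06 CPM in shSCR IgG, 1.55 in shSCR Caprin-1, 34.4 in shCerS4 IgG and 39.1 in shCerS4 Caprin-1. Its log2 ratio was 4.64 [4.21, 5.14] with Caprin-1 and 4.99 [4.40, 5.72] with IgG. The shSCR libraries held 21 and 42 estimated reads of it, so it met the mean of 5 CPM through the shCerS4 cells alone. Mgp, which encodes matrix Gla protein, an inhibitor of calcification, went the other way. It stood at 63.0, 107, 4.78 and 7.18 CPM in the same order, and its ratios were -3.89 [-4.13, -3.68] with Caprin-1 and -3.71 [-4.04, -3.42] with IgG. Fbln1, which encodes fibulin 1, stood at 20.8, 29.5, 1.22 and 3.16 CPM. Its ratios were -3.21 [-3.57, -2.88] and -4.07 [-4.75, -3.50], and it met the mean of 5 CPM through the shSCR cells alone. Fbln2 had the opposite direction from Fbln1. It stood at 224, 164, 569 and 597 CPM, with ratios of 1.86 [1.82, 1.91] and 1.35 [1.30, 1.40]. The shSCR and shCerS4 values of these 4 genes did not overlap. Their choice as past 2-fold in both precipitates favours this, and the share of all genes without overlap was not counted. Efemp2, which encodes fibulin 4, the third measured fibulin, stood at 66.8, 101, 67.7 and 103 CPM, and its ratios of 0.02 with each precipitate had intervals that held 0 and were below 0 under other scalings.

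**Figure D2:**
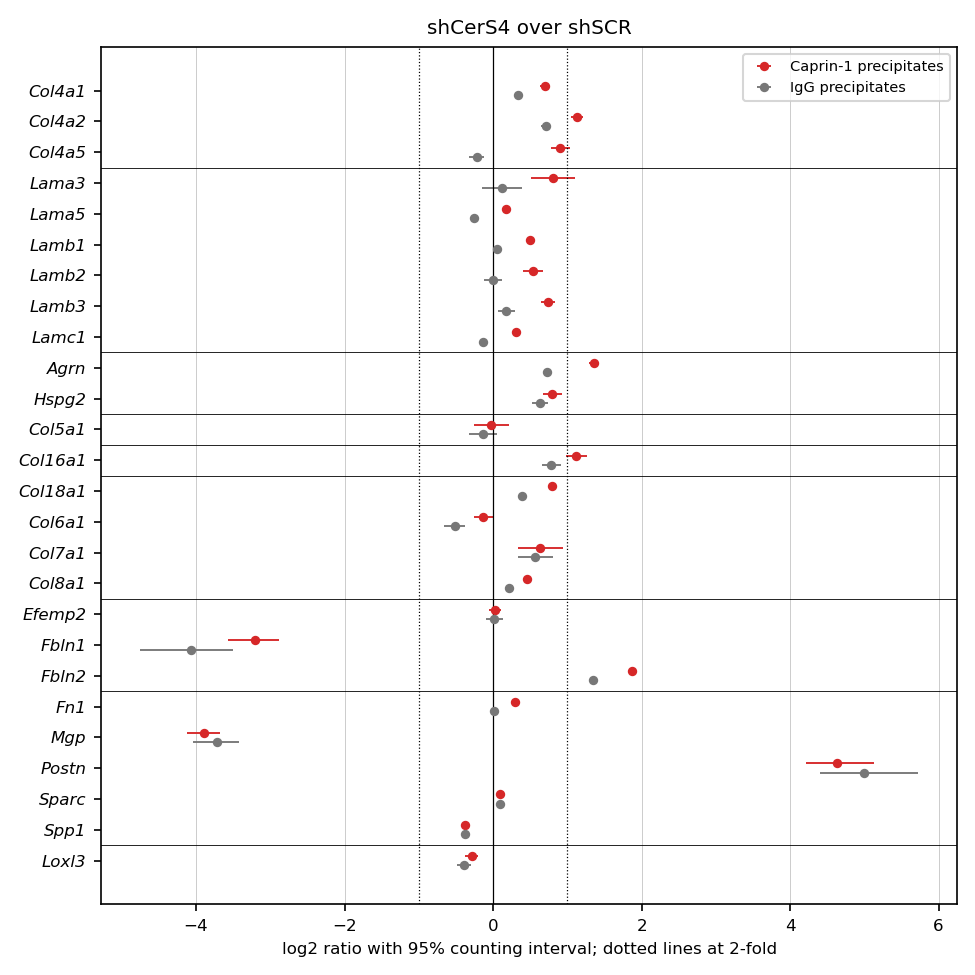
Log2 ratio of shCerS4 over shSCR cells for 26 matrix genes, in Caprin-1 precipitates (red) and IgG precipitates (grey), with 95% counting intervals and dotted lines at 2-fold. Postn and Fbln2 lie right of the line and Mgp and Fbln1 left of it in both, and for 23 of the 26 genes the red point is right of the grey one.

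Between the lines, the 3 tested collagen IV genes had ratios of 0.70 to 1.13 in the Caprin-1 precipitates, and Col4a2 alone of them was past 2-fold. Col4a1 stood at 261 CPM in shSCR IgG, 116 in shSCR Caprin-1, 332 in shCerS4 IgG and 189 in shCerS4 Caprin-1, with ratios of 0.70 [0.63, 0.76] with Caprin-1 and 0.34 [0.29, 0.40] with IgG. Col4a2 stood at 149, 69.4, 244 and 152 CPM, with ratios of 1.13 [1.05, 1.22] and 0.71 [0.65, 0.78]. Both neighbours had ratios above 0 in either precipitate, with their highest level in shCerS4 IgG and their lowest in shSCR Caprin-1. Col4a5, a chain of the collagen IV of kidney, ear and some epithelia, differed from them. In the same order it stood at 87.8, 27.6, 75.3 and 51.7 CPM, a ratio of 0.91 [0.77, 1.04] with Caprin-1 and -0.22 [-0.32, -0.12] with IgG. Its neighbour on the X chromosome, Col4a6, lies 1274 bases away and had 93, 61, 78 and 49 estimated reads, below the mean of 5 CPM. Under trimmed-mean scaling, which sets the bulk of genes near 0, Col4a2 and Col16a1 had ratios of 0.99 and 0.98 with Caprin-1, just under 2-fold.

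Basement membrane linkers followed collagen IV. Agrn, which encodes the heparan sulphate proteoglycan agrin, stood at 213, 98.6, 353 and 252 CPM, the largest ratio of the basement membrane genes at 1.35 [1.29, 1.42] with Caprin-1 and 0.73 [0.68, 0.79] with IgG. Hspg2, which encodes perlecan, stood at 61.7, 30.7, 95.4 and 53.3 CPM, with ratios of 0.80 [0.67, 0.92] and 0.63 [0.52, 0.73]. Both had ratios above 0 in each precipitate, and Agrn with Caprin-1 was the only one of these values past 2-fold.

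The 7 tested laminins were all above 0 with Caprin-1, at 0.18 to 0.81 and none past 2-fold, and lay between -0.25 and 0.18 with IgG. Lama5, Lamb1 and Lamc1 encode the chains of the laminin found in most adult basement membranes. Lama5 stood at 496, 231, 416 and 261 CPM in the order given for Col4a1, and had ratios of 0.18 [0.13, 0.23] with Caprin-1 and -0.25 [-0.30, -0.21] with IgG. Lamb1 stood at 769.7, 415, 799 and 586 CPM, with ratios of 0.50 and 0.05. Lamc1 stood at 316, 147, 288 and 182 CPM, with ratios of 0.31 [0.25, 0.38] and -0.13 [-0.18, -0.08]. In these 3 genes the shSCR Caprin-1 library was the lowest, and Lama5 and Lamc1 had opposite signs in the 2 precipitates. Lama3 and Lamb3 encode chains of the laminin that anchors epithelium at hemidesmosomes. Lama3 stood at 10.9, 5.69, 11.8 and 9.97 CPM, with ratios of 0.81 [0.51, 1.11] and 0.12 [-0.15, 0.40]. Lamb3 stood at 56.0, 51.7, 63.3 and 86.2 CPM, with ratios of 0.74 [0.64, 0.84] and 0.18 [0.06, 0.30]. Lamb3 was the laminin whose highest value was that of the shCerS4 Caprin-1 library. Lamb2, which can take the place of Lamb1, stood at 54.3, 29.3, 54.3 and 42.6 CPM, with ratios of 0.54 and 0.00. With IgG the signs of Lamb1 and Lamb2 turned under 3 other scalings.

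Other collagens were mixed. Col16a1, which encodes a collagen that attaches to fibrils, stood at 40.8, 22.3, 70.3 and 48.5 CPM, with ratios of 1.12 [0.98, 1.27] with Caprin-1 and 0.78 [0.66, 0.91] with IgG. Col18a1, whose protein is a basement membrane collagen and the source of endostatin, stood at 264, 176, 346 and 304 CPM, with ratios of 0.79 and 0.39. Col8a1, a short-chain network collagen, stood at 338, 160.3, 392 and 219.8 CPM, with ratios of 0.46 and 0.21. These 3 had ratios above 0 in both precipitates, past 2-fold only for Col16a1 with Caprin-1. Col7a1, the collagen of anchoring fibrils, stood at 12.9, 5.99, 19.2 and 9.32 CPM, with ratios of 0.64 and 0.57. Col6a1, of the microfibrillar collagen, stood at 53.9, 42.0, 37.6 and 38.4 CPM, with ratios of -0.13 and -0.52. Col5a1, which regulates the width of fibrils, stood at 25.7, 11.6, 23.4 and 11.4 CPM, and intervals of both its ratios held 0. It was the 1 fibrillar collagen of 8 to reach a mean of 5 CPM.

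The remaining genes encode interstitial glycoproteins and a crosslinking enzyme. Fn1, which encodes fibronectin, stood at 1790.4, 1018, 1808 and 1250.0 CPM, with ratios of 0.30 [0.27, 0.32] with Caprin-1 and 0.01 [-0.01, 0.04] with IgG, an interval that held 0. Sparc, which encodes the collagen-binding protein osteonectin, stood at 368, 560.4, 391 and 598 CPM, with ratios of 0.09 in each; with Caprin-1 the sign turned under 3 other scalings. Spp1 stood at 2667, 4764, 2053 and 3665 CPM, with ratios of -0.38 in each. Loxl3, a lysyl oxidase gene, stood at 105, 97.8, 80.4 and 80.1 CPM, with ratios of -0.29 and -0.39. None of these 4 was past 2-fold, and Spp1 had the same ratio in both precipitates to 2 decimals.

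Caprin-1 precipitates were then set against IgG precipitates of the same cells, to see which matrix mRNAs held a larger share with Caprin-1 than with the control antibody. In shSCR cells 10 of 27 matrix mRNAs were lower with Caprin-1 and none higher, where 13.0% of all genes were lower and 1.69% higher. In shCerS4 cells 2 were lower (Col5a1 and Col7a1; 8.02% of all genes) and 1 higher (Fbln1; 0.934%). The median was -0.87 in shSCR and -0.35 in shCerS4 cells, beside -0.13 and -0.11 over all genes. The interval lay above 0 for 5 genes in shSCR cells (34.2% of all genes) and below it for 20 (48.9%), and for 8 (32.6%) and 16 (47.2%) in shCerS4 cells. The count of 10 depended on scaling. Scaled by the trimmed mean, the median of ratios or the upper quartile it was 1 (Col4a5), and Spp1 was then past 2-fold on the higher side. Counts over all genes shifted too: for shSCR cells from 174 above and 1337 below to 498 and 851 with the trimmed mean, and for shCerS4 cells from 96 and 825 to 217 and 566. Between the lines with Caprin-1 they were 643 and 509, and 442 and 639.

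The genes lower with Caprin-1 in shSCR cells were Col4a1, Col4a2, Col4a5, Col5a1, Col7a1, Col8a1, Lama5, Lamc1, Agrn and Hspg2. Col4a5 was the lowest at -1.67 [-1.80, -1.55], and it stood at -0.54 [-0.65, -0.43] in shCerS4 cells. Col4a1 stood at -1.17 and -0.81, and Col4a2 at -1.10 and -0.68. Among laminins Lama5 stood at -1.10 and -0.67, Lamc1 at -1.10 and -0.66, and Lamb1 at -0.89 and -0.45. Agrn stood at -1.11 and -0.49. Each of these was closer to 0 in shCerS4 cells, whereas Col5a1 (-1.15 and -1.04) and Col7a1 (-1.11 and -1.04) were at nearly one value in both lines. Fn1 stood at -0.81 [-0.84, -0.79] and -0.53 [-0.55, -0.51].

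A second set was above 0 in both lines: Spp1, Mgp, Sparc, Efemp2, Postn and Fbln1. Spp1 stood at 0.84 [0.82, 0.85] in each line. Sparc stood at 0.61 [0.57, 0.65] in each, and Efemp2 at 0.60 in each. Mgp stood at 0.76 [0.67, 0.86] and 0.58 [0.22, 0.96], though its level was 14.9-fold lower in shCerS4 cells with Caprin-1 and 13.1-fold with IgG. Fbln1 stood at 0.50 [0.33, 0.67] and 1.35 [0.70, 2.10], the last from 24 and 78 estimated reads. The interval of Postn in shSCR cells, from -0.24 to 1.38, held 0. Its sign there turned when only the most abundant transcript was used. These 6 spanned 3.39 to 80.3 kb of genome with a median of 17.2 kb, and the 18 genes below 0 in both lines spanned 10.7 to 249.6 kb with a median of 84.8 kb. Loxl3 was near 0 in both lines, at -0.11 and -0.01. Lamb3 (-0.12 and 0.44), Fbln2 (-0.45 and 0.07) and Col6a1 (-0.36 and 0.03) were on different sides of 0 in the lines; under other scalings Lamb3 and Loxl3 were above 0 in shSCR cells.

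**Figure D3:**
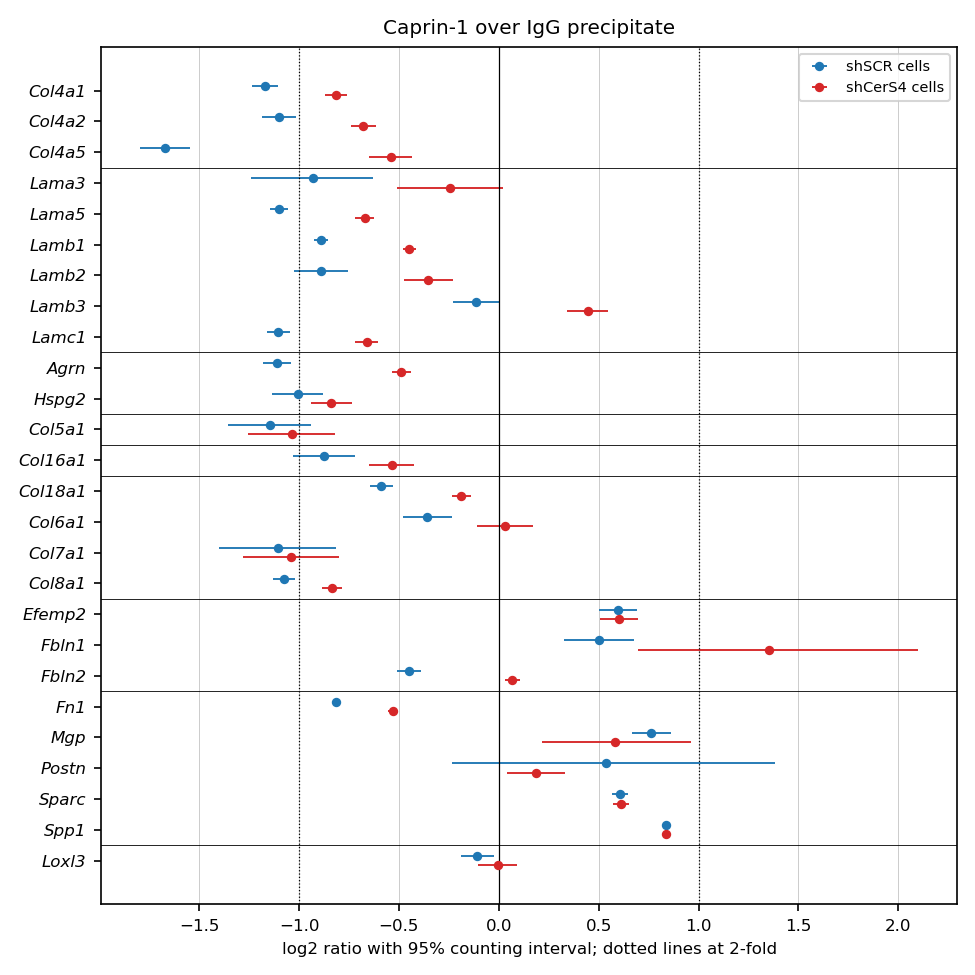
Log2 ratio of the Caprin-1 over the IgG precipitate for 26 matrix genes, in shSCR cells (blue) and shCerS4 cells (red), with 95% counting intervals and dotted lines at 2-fold. Basement membrane genes lie left of 0 in shSCR cells and, apart from Lamb3 (-0.12 and 0.44), nearer to it in shCerS4 cells, and Spp1, Sparc and Efemp2 have 1 position in both.

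Across the 27 genes the ratio over IgG was lower the longer the genomic span, at a Spearman correlation of -0.66 in shSCR and -0.55 in shCerS4 cells. Over 10277 genes the correlations were -0.54 and -0.48, so a relation of this kind was present in the libraries at large. Genes of a library share its depth and preparation and are not independent, and these values are a description. The length of the mRNA itself was not analysed here. Lamb2, the shortest of the laminin genes at 10.7 kb, stood at -0.89 in shSCR cells, near the laminins with longer genes.

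**Figure D4:**
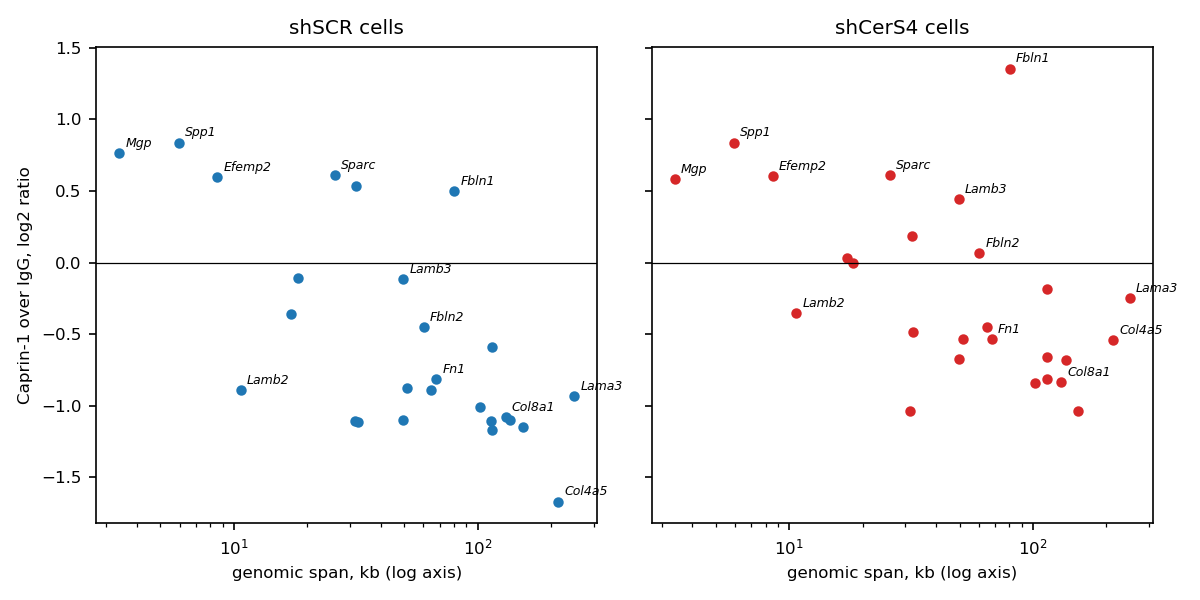
Log2 ratio of the Caprin-1 over the IgG precipitate against genomic span in kb (log axis) for 26 matrix genes, in shSCR cells (left) and shCerS4 cells (right), with 12 genes named. Mgp, Spp1, Efemp2 and Sparc, with short genes, lie above 0, and Col4a5 at 213.9 kb is the lowest in shSCR cells.

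Finally, the ratio over IgG was compared between the lines as a difference, shCerS4 minus shSCR. It was above 0 for 24 of the 27 matrix mRNAs, with a median of 0.37, beside a median of 0.04 over all genes and 56.0% above 0 among the 10256 other genes; it was above 0 for 21 or 22 under other scalings. Only Col4a5 was past 2-fold, at 1.13 [0.96, 1.29], where 0.632% of all genes were; none was lower, where 0.35% were. The interval lay above 0 for 19 of the 27, against 29.4% of all genes, and below 0 for none, against 20.9%. All 12 basement membrane genes were among the 19, at 0.17 to 1.13 with a median of 0.44. Their differences, intervals aside, remained above 0 under each scaling tried. Hspg2 then stood at 0.10 with the trimmed mean and 0.14 with the median of ratios.

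Among the 6 laminins described here the difference was 0.43 to 0.69. It was 0.43 [0.36, 0.50] for Lama5, 0.44 [0.40, 0.49] for Lamb1 and 0.44 [0.36, 0.52] for Lamc1, 3 chains of one trimer whose intervals overlapped. It was 0.69 [0.29, 1.08] for Lama3 and 0.56 [0.41, 0.71] for Lamb3, whose intervals also overlapped, and 0.54 [0.36, 0.72] for Lamb2. Agrn stood at 0.62 [0.54, 0.71] and Hspg2 at 0.17 [0.01, 0.33], so the linkers differed from each other beyond counting error. Col4a1 and Col4a2 stood at 0.36 [0.27, 0.44] and 0.42 [0.32, 0.53]. Among genes outside these 12, Fbln2 stood at 0.52 [0.45, 0.59], Col18a1 at 0.40 [0.33, 0.47], Col6a1 at 0.39 [0.20, 0.57] and Fn1 at 0.28 [0.25, 0.31]. As whole genes, Spp1, Sparc and Efemp2 lay within 0.01 of 0, at intervals of [-0.02, 0.02], [-0.05, 0.06] and [-0.13, 0.14].

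This difference moved with other properties of the libraries. Over 10277 genes it was larger at longer genomic spans, at a Spearman correlation of 0.29, and among the 27 of 0.46. Of the genes with a ratio below -0.5 in shSCR cells, a limit chosen after the values were seen, 17 were matrix genes with a median difference of 0.40, and the 3180 others had a median of 0.23, with 81.4% above 0. Among genes that span over 50 kb, 15 matrix genes had a median of 0.40 and 2701 others a median of 0.15. The part of length and of the low shSCR Caprin-1 values in the matrix result was not tested; both terms of the first split contain the shSCR libraries.

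Transcripts were listed separately for 12 of the 50 genes, without identifiers, so rows are called by their rank in mean level. Fn1 had 7 rows. Its row 1 held 47.4% of the gene in shSCR IgG and 47.4% in shSCR Caprin-1, but 56.2% and 56.7% in the shCerS4 libraries. Row 2 held 32.3% and 31.8% in shSCR and 24.6% and 21.9% in shCerS4 cells. These 2 rows differed more in share between the lines than between precipitates. The least abundant rows, with 0.446% to 1.41% of the gene, had other values. Over IgG, row 6 had -1.62 for the control line but -0.04 for shCerS4 cells, and row 7 had -1.63 and -0.25. With Caprin-1, row 1 had a shCerS4 over shSCR ratio of 0.55 and row 2 one of -0.24. Col4a5 had 2 rows, and row 1 held 77.8% of the gene in shSCR IgG, 65.7% in shSCR Caprin-1, 52.0% in shCerS4 IgG and 39.9% in shCerS4 Caprin-1. The difference of the ratios over IgG was 0.99 for row 1 and 0.82 for row 2, both smaller than the 1.13 of their sum. For Col4a5, then, the 2-fold difference held for the gene and for neither row. Sparc was the steadiest, with 23.1%, 23.0%, 23.0% and 23.0% of its reads in row 2. How reads that fit several transcripts were divided is not given in the sources used here.

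**Figure D5:**
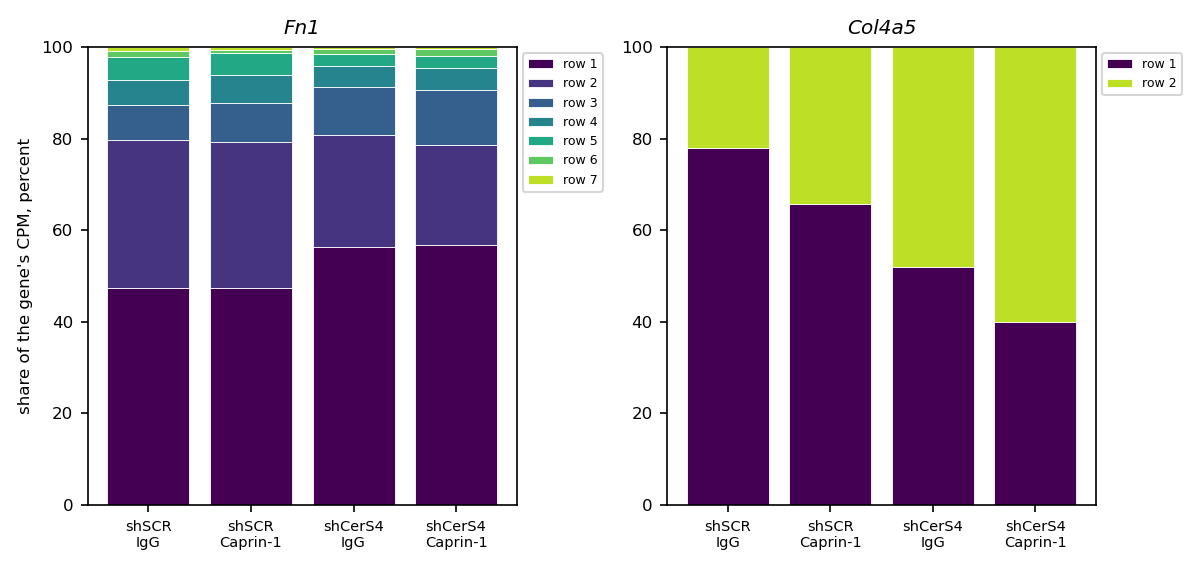
Share of the CPM of Fn1 (left, 7 rows) and Col4a5 (right, 2 rows) that each transcript row took, in percent, in the 4 libraries. For Fn1 row 1 is larger in both shCerS4 libraries, and for Col4a5 it shrinks from 77.8% in shSCR IgG to 39.9% in shCerS4 Caprin-1.

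The other 23 genes had a mean of 0.164 to 3.22 CPM, and 18 of them were under 1 CPM. They included the fibrillar collagen genes Col1a1 (5.14, 0.666, 3.30 and 0.851 CPM in the order above), Col1a2 and Col3a1, which fibroblasts express strongly. No library held more than 107.8 estimated reads of any of the 23, and 9 were listed at 0 in at least 1 library. Tnc, which encodes tenascin C and is singled out after its values were seen, had 22 and 15.8 estimated reads in shSCR IgG and Caprin-1 and 107.8 and 62.5 in the shCerS4 libraries. Nid1, the measured nidogen, had 85, 36, 46 and 54 reads.

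Genes that make, receive or accompany these proteins were described from lists chosen by function. Of 26 tested genes for folding, trimming and crosslinking of collagen, none was higher and 1 lower in shCerS4 cells with Caprin-1 (6.25% and 4.95% of all genes), with a median of 0.25, and 2 were higher and 2 lower with IgG (5.69% and 5.34%). The gene lower with Caprin-1 was Pcolce, an enhancer of procollagen trimming, at -1.09, and it was also lower with IgG at -1.13. P4hb, the most abundant and a subunit of prolyl hydroxylase, stood at 0.19. The median difference of the ratios over IgG was 0.13, and none of the 26 was past 2-fold. The collagen chaperone gene Serpinh1 stood at 748, 1182, 677 and 1078 CPM, above IgG with Caprin-1 in both lines (0.66 and 0.67), unlike most collagens. Of 18 tested further matrix glycoproteins and proteoglycans 5 were higher and 1 lower with Caprin-1, with a median of 0.49, and 4 were higher and 2 lower with IgG, with a median of 0.16, beside the same shares of all genes. The highest were Ccn4 at 2.73, Ccn2 at 2.12 and Thbs1, which encodes thrombospondin 1, at 1.51; Thbs3 was lower at -1.99, and Igfbp7, the most abundant, stood at 1.36. With IgG, Ccn4 stood at 2.55, Ccn2 at 1.91, Igfbp7 at 1.34, Thbs1 at 0.96 and Thbs3 at -1.38. Their median difference was 0.19. Of 22 tested matrix receptors other than integrin alpha chains 2 were higher with Caprin-1, Lrp1 (1.09) and Antxr2 (1.07), where 6.25% of all genes were. The 2 lower, where 4.95% of all genes were, were Hmmr (-1.76) and the laminin receptor gene Bcam (-1.20). With IgG none was higher (5.69% of all genes) and Hmmr and Bcam were lower (5.34%), at -1.29 and -1.75. Rpsa, the most abundant of them, stood at 0.09, and Itgb1, the integrin beta chain shared by most laminin and collagen receptors, at 0.98 with Caprin-1 and 0.52 with IgG. None of the tested genes on these lists had a difference past 2-fold, where 0.632% of all genes were higher and 0.35% lower.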

How the data were processed

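RNA of 4 immunoprecipitates was sequenced, 1 library per group. Per the labels' protocols, libraries were made from 500 ng of total RNA with a SMARTER mRNA kit. Reads were aligned to mm10 with STAR in Partek, per the submitters' processing notes; versions, counting and strand are not given in the sources used here. The deposited values are CPM per transcript, with 0.0001 added to each by the authors, which was subtracted; all columns then sum to one total, although the values are named raw counts, so ratios of CPM replaced a count test. The worth of 1 read was read from the spacing of low values. Of gene values under 40 CPM, 79.8% to 81.2% lay within 0.05 reads of a whole number, but 28.9% to 31.4% of transcript values did, so reads are estimates.

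The 24393 transcript rows were summed into 12967 symbols. Log2 ratios were taken on library totals with 0.5 reads added. Intervals were exact binomial (Clopper-Pearson) ones for 2 libraries and normal ones for the difference; they cover counting error only, and reads carried no molecular barcodes. Every gene was computed and matrix genes were reported; 26 of the 27 tested are named and drawn and 1 is not reported here, though it stays in counts and medians, and of each list the most abundant and up to 3 highest and lowest called genes, Serpinh1, Itgb1 and the markers being added. Members, families and lists were chosen with earlier results of these data known. Positions and promoters are RefSeq's (GRCm38.p6), and all 50 symbols matched. Calculations used Python 3.11.15, scipy 1.17.1 and pandas 2.3.3 and were tested on simulated data. Alternatives were 3 scalings (the trimmed mean left out 30% of log ratios and 5% of abundances on each side), 3 filters, 5 added reads, the most abundant transcript, no interval and thinning.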

Additional observations from a re-analysis of the deposited data

Results flagged for a closer look

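Results were looked for in which the same contrast had opposite signs in the 2 precipitates or the 2 cell lines, with both counting intervals excluding 0. With 1 library per group these differences were not tested. For shCerS4 over shSCR, Col4a5 stood at 0.91 with Caprin-1 and -0.22 with IgG, Lama5 at 0.18 and -0.25, and Lamc1 at 0.31 and -0.13. By transcript, row 1 of Col4a5 had 0.19 with Caprin-1 and -0.80 with IgG, and row 2 had 1.71 and 0.89. The opposite signs were thus those of row 1 only. The value of Lama5 with Caprin-1 was nearer to 0 under other scalings. It was 0.04 with the trimmed mean, 0.05 with the median of ratios and 0.07 with the upper quartile. For Caprin-1 over IgG, Fbln2 had -0.45 in shSCR cells but 0.07 after the knockdown shRNA.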

How the results depend on the processing

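With 1 library per group no replicate could be left out, and no paired analysis was possible because each group holds 1 library. Of the matrix genes, none past 2-fold changed direction under any of the 10 alternatives. Scaling by the trimmed mean, the median of ratios or the upper quartile moved the median over all genes in shSCR cells from -0.13 to 0.07, 0.04 and 0.05 for Caprin-1 over IgG; each left 1 matrix gene higher and 1 lower there, and 0 lower in shCerS4 cells. The trimmed mean left 3 higher with Caprin-1 in shCerS4 cells. With a minimum of 1 CPM, 4 genes were higher in the IgG precipitates of shCerS4 cells, 5 lower for Caprin-1 over IgG in shCerS4 cells and 2 higher for the difference. With 20 CPM, 1 was lower with Caprin-1 and 1 higher and 1 lower with IgG in shCerS4 cells, and for Caprin-1 over IgG in shCerS4 cells 0 were higher and 0 lower. With no filter 13 were higher with Caprin-1, 10 higher and 8 lower with IgG, 1 higher and 23 lower over IgG in shSCR cells, 5 higher and 11 lower over IgG in shCerS4 cells, and 7 higher and 2 lower for the difference, many of them on few reads. The most abundant transcript alone left 0 higher over IgG in shCerS4 cells and 0 for the difference, and thinning to the smallest depth gave 2 for the difference. Depth limits the 23 genes under 5 CPM, for which no direction is read.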
